A study of Mus musculus with 8 samples.

Results

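Prolactin and growth hormone signal through a short pathway whose parts are made in pancreatic beta cells, which secrete insulin. The 10 genes described here were taken by symbol, and all were found among the 55487 Ensembl gene identifiers of the deposited tables. They are the receptors Prlr and Ghr, the kinase Jak2, the transcription factors Stat5a, Stat5b and Stat3, and the feedback inhibitors Cish, Socs1, Socs2 and Socs3. Each hormone brings receptor chains together, Jak2 bound to them phosphorylates STAT proteins, chiefly Stat5a and Stat5b, and these enter the nucleus and switch on targets that include Cish and Socs2, whose proteins damp the same receptors. In islets the pathway is best known for pregnancy, when prolactin and placental lactogens act through Prlr on beta cell division and on Tph1, an enzyme of serotonin synthesis. Stat3 and Socs3 belong more to the interleukin-6 family branch, and Socs1 to the interferon branch, of the same JAK-STAT system.

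RNA was sequenced from beta cells flow-sorted from the dispersed islets of mice that had all received tamoxifen. The groups were 4 Control libraries and 4 libraries labelled Chd4KO, from mice in which Chd4, the nucleosome-moving helicase of the NuRD complex, was deleted in beta cells. Libraries have animal numbers of their own and were treated as different mice. The numbers of all Control libraries are lower than those of all Chd4KO libraries, and the sources used here name no Cre driver, strain, age, sex or processing batch, so a difference of that kind cannot be told apart from genotype. Values are TPM, a share of transcripts that the authors scaled to a fixed total in each library. The test was limma on log2(TPM + 1), with Benjamini-Hochberg adjustment over all 15189 genes tested and an adjusted p under 0.05 counted as a change.

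Libraries held 14.9 to 41.0 M reads in genes. Chd4 itself lay between 11.1 and 15.98 TPM in Control and between 2.59 and 8.38 TPM in Chd4KO, with no overlap (log2 change -1.18 ± 0.29, SE, limma adjusted p = 0.0725). The files give 1 value per gene, so exons outside a deleted stretch cannot be separated. Insulin transcripts, the defining beta cell product, took 38.1 to 41.8% of TPM in Control and 32.4 to 62.0% in Chd4KO. All 10 beta cell markers were tested, and 2 of them, Mafa and Slc2a2, fell, against 1.44% of all tested genes called lower. Of the 10, 6 had an unadjusted p under 0.05, all lower, against 2460 of all 15189 tested genes. The groups did not overlap for 5 lower markers, against 11.3% of all tested genes. After scaling each library by its median ratio they did not overlap for 2 lower markers, against 7.35%. The share of 62.0% belonged to Chd4KO replicate 4, where 12702 genes reached 1 TPM against 14788 to 15923 in the other libraries. Acinar cell markers, 18 genes of the enzyme-secreting cells around islets, summed to 43645 TPM in Chd4KO replicate 2 and 1740 TPM in Control replicate 2. The other 6 libraries held 3.82 to 256 TPM of them. No endothelial marker exceeded 4.37 TPM and no mesenchymal marker 0.568 TPM, but both sums were higher in every Chd4KO library than in any Control library. The endothelial sums were 6.41 to 9.48 against 5.61 to 6.10 TPM, and the mesenchymal sums 0.816 to 1.57 against 0.148 to 0.610 TPM. The 2 tested endothelial markers went opposite ways, each without overlap between the groups, and neither passed the limma test. Egfl7 was higher in Chd4KO (log2 change 0.74) and Esam lower (-0.25), so the higher endothelial sum was not a rise shared by these markers. The ductal marker Cftr fell and Rbp4, on the delta, PP and epsilon cell list, rose (limma adjusted p = 0.0238 and 0.0330). The part of such cells in the results below was not tested. Of 6 tested leukocyte markers 2, Cd68 and Fcer1g, rose, against 1.53% of all tested genes called higher. The 12 listed genes summed to 34.3 to 63.4 TPM in Control and 60.6 to 111 TPM in Chd4KO. In sorted bulk samples a lower value can come from fewer cells of a type or from less RNA per cell, and the 2 cannot be told apart.

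The promoters of the pathway genes were read for the letters TTCNNNGAA, the core that STAT5 and STAT3 proteins bind. The reading is shown because 3 of these genes carry the motif, so that count is no separate result. The motif reads the same on both strands. The windows came from RefSeq on GRCm38.p6, with 250 bases before a transcript start and up to 50 after it. Of the 10 genes 9 had at least 1 window, 14 in all, and Cish, Socs3 and Prlr held a match. Of all 32851 windows 8.30% held at least 1 match and 0.457% held 2 or more. Capitals mark the matches below, and each sequence runs 5′ to 3′ on the strand of its gene. Cish (chr9:107296409-107296678, plus strand) held a pair, TTCCTGGAA beginning at base 1 of the transcript and TTCTTGGAA at base 12. Socs3 (chr11:117969367-117969616, minus strand) held TTCTTAGAA beginning 154 bases upstream of the start. Prlr (chr15:10223656-10223905, plus strand, 1 of its 3 windows) held TTCTAGGAA beginning 110 bases upstream. That Prlr window lies inside the annotated gene, which runs from 10177238 to 10349180. Wipi1, a listed prolactin-responsive gene that changed in the comparison, is printed beside them (chr11:109611390-109611639, minus strand) with TTCTCTGAA beginning 158 bases upstream. Of the 22 prolactin-responsive genes with a window, 2 held a match (Ivd and Wipi1), in 2 of 36 windows. A match is a run of letters and was not tested as a binding site.
Cish: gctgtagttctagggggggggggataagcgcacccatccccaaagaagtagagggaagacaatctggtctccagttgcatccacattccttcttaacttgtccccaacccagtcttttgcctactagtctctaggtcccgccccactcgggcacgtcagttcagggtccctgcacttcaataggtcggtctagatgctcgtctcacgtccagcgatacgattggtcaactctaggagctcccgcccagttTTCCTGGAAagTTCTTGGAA
Socs3: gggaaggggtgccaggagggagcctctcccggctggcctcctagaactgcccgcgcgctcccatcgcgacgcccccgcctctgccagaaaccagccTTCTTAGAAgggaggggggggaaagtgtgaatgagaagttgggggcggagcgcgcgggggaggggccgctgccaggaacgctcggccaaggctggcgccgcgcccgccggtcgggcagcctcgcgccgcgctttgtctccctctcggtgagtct
Prlr: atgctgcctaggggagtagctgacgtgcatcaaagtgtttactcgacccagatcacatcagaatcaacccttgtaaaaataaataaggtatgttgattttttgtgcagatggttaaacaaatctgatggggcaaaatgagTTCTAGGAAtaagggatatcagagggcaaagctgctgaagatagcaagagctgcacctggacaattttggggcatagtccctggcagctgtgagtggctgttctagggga
Wipi1: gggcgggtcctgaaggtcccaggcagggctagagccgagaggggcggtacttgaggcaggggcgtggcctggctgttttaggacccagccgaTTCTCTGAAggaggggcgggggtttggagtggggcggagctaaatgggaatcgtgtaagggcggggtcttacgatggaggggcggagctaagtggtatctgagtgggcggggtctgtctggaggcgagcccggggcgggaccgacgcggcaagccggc

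Control beta cells expressed the pathway unevenly. The mean level was highest for Cish at 182 TPM, followed by Prlr at 171, Socs3 at 164, Stat3 at 84.3, Socs2 at 41.1, Ghr at 39.3, Stat5b at 36.5, Jak2 at 15.3, Stat5a at 5.05 and Socs1 at 0.764 TPM (n = 4). The Control ranges of neighbours in that order overlapped for Cish and Prlr, Prlr and Socs3, Socs3 and Stat3, Socs2 and Ghr, and Ghr and Stat5b. They did not overlap for Stat3 and Socs2, Stat5b and Jak2, Jak2 and Stat5a, or Stat5a and Socs1. TPM is a level per base of transcript and rests here on merged exon length, 15339 bases for Prlr and 6419 for Cish. Socs1 did not reach 1 TPM in 4 libraries, so 9 of the 10 genes were tested.

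None of the 9 tested genes passed the limma threshold in Chd4KO, nor with voom on recovered reads, against 2.97% of all genes called in either direction, 1.44% lower and 1.53% higher. Stat5b alone had an unadjusted p under 0.05, against 2460 of all 15189 tested genes. All 9 changes were negative, as were 11361 of all 15189 (74.8%), and their median was -0.45 against -0.25 over all genes (log2). After scaling each library by its median ratio, the median of the 9 was -0.24 against -0.01. The 95% intervals are wide, running for Prlr from -1.59 to 0.06, so the lack of a call does not show that levels were equal.

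**Figure D1:**
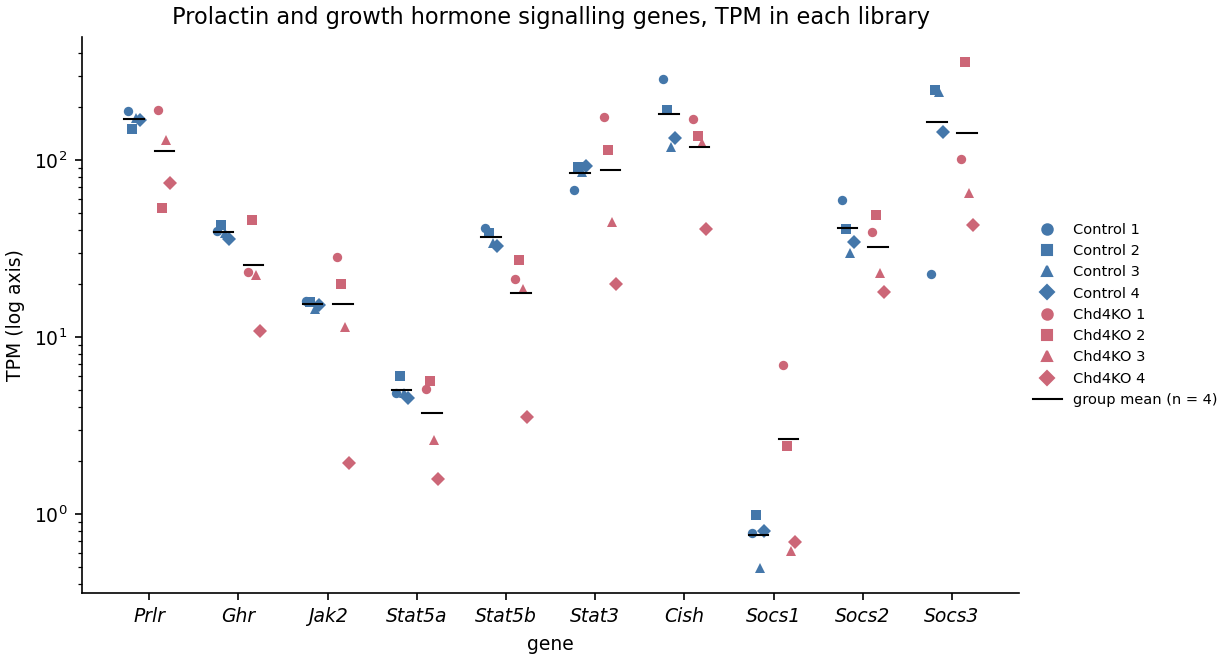
TPM of the 10 prolactin and growth hormone signalling genes on a log axis, with 1 point per library (marker shape gives the replicate, blue Control, red Chd4KO) and a bar at the group mean (n = 4). The Stat5b groups do not overlap, while the other 9 genes overlap between groups, and Chd4KO replicate 4 is the lowest of all 8 libraries for Ghr, Jak2, Stat5a, Stat5b, Stat3, Cish and Socs2.

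Prlr, the receptor for prolactin and placental lactogens (ENSMUSG00000005268, mm10 chromosome 15, 10177238 to 10349180, plus strand), had TPM of 190.1, 149.99, 174 and 169 in Control replicates 1 to 4 and of 192, 53.5, 129 and 74.3 in Chd4KO replicates 1 to 4. Chd4KO replicate 1 was the highest of all 8 libraries, and replicates 2, 3 and 4 lay below every Control library. Group means were 171 ± 16.5 and 112 ± 61.95 TPM (n = 4 each, SD), and the log2 change was -0.76 ± 0.37 (SE, limma adjusted p = 0.343). After scaling, replicates 3 and 4 stood at 135 and 137 against 135 to 161 in Control, which left replicate 2 at 48.1 as the low one. Replicate 2 is the library with the large acinar sum, and the part of those transcripts in its Prlr value was not tested. The change was -0.47 without replicate 2 (adjusted p = 0.396), -0.46 after scaling, and -0.11 without replicates 2 and 4 (adjusted p = 0.803).

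Ghr, the growth hormone receptor (ENSMUSG00000055737, chromosome 15, 3317760 to 3583492, minus strand), had TPM of 39.6, 43.2, 38.5 and 35.8 in Control and of 23.3, 46.05, 22.5 and 10.8 in Chd4KO, replicates 1 to 4. The Chd4KO libraries split the other way from Prlr, with replicate 2 above every Control library and the other 3 below all of them. The log2 change was -0.76 ± 0.36 (SE, limma adjusted p = 0.343) from means of 39.3 ± 3.07 and 25.7 ± 14.7 TPM (n = 4 each, SD). The pattern held after scaling, where replicates 1, 3 and 4 lay at 19.8, 23.5 and 20.1 against 32.7 to 38.8 in Control and replicate 2 at 41.5. Without replicate 4 the change was -0.43 (adjusted p = 0.402) and without replicate 2 it was -1.09 (adjusted p = 0.101). Leaving out both gave -0.75 with an adjusted p of 0.0373, the only call for Ghr among the 19 alternatives, in a fit where 2.41% of all genes were called lower. Because Prlr and Ghr diverged in replicate 2, the ratio of Prlr to Ghr was 1.16 there, 3.47 to 4.80 in Control and 5.75 to 8.24 in the other Chd4KO libraries.

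Jak2, the kinase shared by both receptors (ENSMUSG00000024789, chromosome 19, 29251828 to 29313080, plus strand), was steady in Control at 15.97, 15.8, 14.4 and 15.2 TPM. Chd4KO gave 28.4, 19.8, 11.3 and 1.95 TPM, with replicates 1 and 2 above all Control libraries and 3 and 4 below them. The group means were nearly equal at 15.3 ± 0.703 and 15.4 ± 11.3 TPM (n = 4 each, SD), and the log2 difference of -0.42 ± 0.61 (SE, adjusted p = 0.716 from limma) was 0.26 without replicate 4 and -0.84 without replicate 1. The coefficient of variation was 4.58% in Control and 73.8% in Chd4KO.

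Stat3, which interleukin-6 family cytokines and leptin also activate (ENSMUSG00000004040, chromosome 11, 100885098 to 100939540, minus strand), had TPM of 67.3, 90.8, 85.96 and 92.9 in Control and of 174, 115, 44.6 and 19.8 in Chd4KO. The same split as for Jak2 appeared, with replicates 1 and 2 above and 3 and 4 below every Control library. Its log2 change was -0.35 ± 0.58 (SE, limma adjusted p = 0.749), with 0.20 without replicate 4 and -0.82 without replicate 1. Summed acinar markers were 256 and 43645 TPM in replicates 1 and 2 and 10.9 and 3.82 TPM in replicates 3 and 4, and their part in this split was not tested.

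Stat5b, which growth hormone in particular uses (ENSMUSG00000020919, chromosome 11, 100780731 to 100850724, minus strand), had TPM of 41.1, 38.7, 33.8 and 32.5 in Control and of 21.2, 27.1, 18.6 and 3.55 in Chd4KO. Alone among the 10 genes, all its Chd4KO libraries lay below all Control libraries, a pattern shown by 11.3% of tested genes in that direction and 3.54% in the other. Group means were 36.5 ± 4.04 and 17.6 ± 10.04 TPM (n = 4 each, SD), so Chd4KO had 48.3% of the Control level. The log2 change was -1.28 ± 0.51 (SE, 95% interval -2.43 to -0.13), or -1.03 relative to the median gene, with an adjusted p of 0.259 from limma. Scaled values still did not overlap, at 30.3 to 34.7 in Control and 18.1, 24.4, 19.5 and 6.57 in Chd4KO, as for 7.35% of all tested genes. Chd4KO replicate 4 set much of the size: without it the change was -0.70 (adjusted p = 0.0605), and without replicates 2 and 4 it was -0.84 (adjusted p = 0.0380). A fit with limma's array weights, which counts a library less the further it lies from its group, gave -0.79 (adjusted p = 0.0475), where 5.17% of genes were called lower.

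Stat5a, the neighbour and close relative of Stat5b (ENSMUSG00000004043, chromosome 11, 100859351 to 100885169, plus strand), had TPM of 4.85, 6.03, 4.80 and 4.51 in Control and of 5.09, 5.64, 2.60 and 1.59 in Chd4KO. Replicates 1 and 2 of Chd4KO lay inside the Control range and replicates 3 and 4 below it. The log2 change was -0.45 ± 0.31 (SE, limma adjusted p = 0.470), and it was -0.20 without replicate 4 and -0.24 after scaling. The 3 STAT genes sit side by side, with 8626 bases between Stat5b and Stat5a and the ends of Stat5a and Stat3 sharing 72 bases on opposite strands. Stat5a and Stat5b share 608 stretches of 50 bases in their exons, 8.21% of those of Stat5a and 10.98% of those of Stat5b, so reads there could have been counted for either gene or dropped.

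Within a library, Stat5b exceeded Stat5a by 8.47, 6.42, 7.04 and 7.20 times in Control and by 4.17, 4.82, 7.16 and 2.24 times in Chd4KO. Replicate 3 of Chd4KO stayed inside the Control range and the other 3 lay below it. The ratio of Stat3 to Stat5b was 1.64 to 2.86 in Control and 8.22, 4.22, 2.39 and 5.59 in Chd4KO, where again only replicate 3 stood inside the Control range. Ratios within a library do not move with its total. They were picked with the levels known and carry no test.

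**Figure D2:**
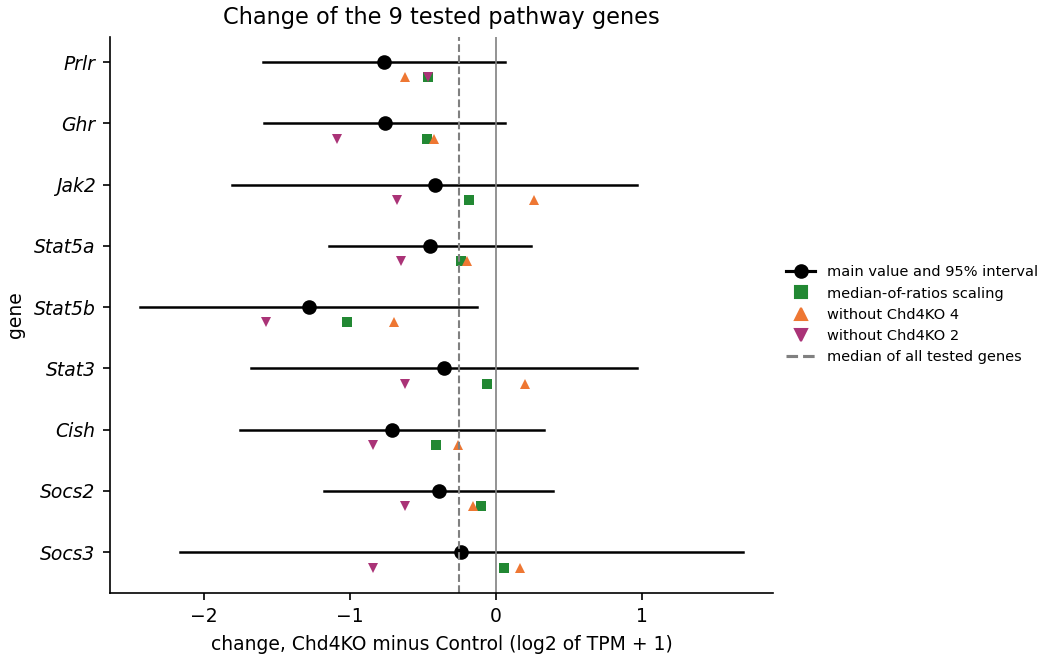
Change of the 9 tested genes in Chd4KO against Control, as log2 of TPM + 1, with the main value and its 95% interval (black), the value after median-of-ratios scaling (green square), without Chd4KO replicate 4 (orange triangle) and without Chd4KO replicate 2 (purple triangle). The interval of Stat5b alone excludes 0, and the values of Jak2, Stat3 and Socs3 without replicate 4 lie above 0.

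Cish, an inhibitor that Stat5 switches on and a common readout of its activity (ENSMUSG00000032578, chromosome 9, 107296026 to 107302784, plus strand), had TPM of 285, 192, 119 and 134 in Control and of 170.5, 137, 126 and 40.8 in Chd4KO. Chd4KO replicates 1, 2 and 3 lay inside the Control range and replicate 4 below it. Group means were 182 ± 75.3 and 118 ± 55.2 TPM (n = 4 each, SD), a difference of -0.71 ± 0.46 in log2 (SE, adjusted p = 0.456 from limma) that was -0.26 without replicate 4, -0.47 without Control replicate 1 and -0.41 after scaling. Unlike Prlr and Jak2, Cish varied among Control mice nearly as much as among Chd4KO mice, with coefficients of variation of 41.2 and 46.6%.

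An antisense transcript, Gm17041 (ENSMUSG00000090570), lies inside the Cish locus on the other strand and had a higher TPM than Cish. It had TPM of 1607, 1057, 658 and 748 in Control and of 943, 749, 769 and 247 in Chd4KO (log2 change -0.66, limma adjusted p = 0.473). A pseudogene on the same strand as Gm17041, Gm17040, overlaps Cish by 1167 bases and had 47.4 ± 20.98 and 26.3 ± 13.1 TPM (n = 4 each, SD). In Control the order of the libraries was the same for Gm17041 and Cish, and in Chd4KO replicates 2 and 3 were swapped. These libraries do not mark strand, so reads in the bases that Cish shares with either gene cannot be told apart. For Gm17041 the shared span is 1459 bases with introns included, and its exons add up to 479 bases.

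Socs2, which restrains growth hormone signalling (ENSMUSG00000020027, chromosome 10, 95385362 to 95417180, minus strand), had TPM of 59.6, 40.7, 29.7 and 34.4 in Control and of 39.2, 49.1, 23.1 and 18.03 in Chd4KO. Replicates 1 and 2 of Chd4KO lay inside the Control range and replicates 3 and 4 below it. The log2 change was -0.39 ± 0.35 (SE, limma adjusted p = 0.559). It was -0.16 without Chd4KO replicate 4, -0.20 without Control replicate 1, -0.62 without Chd4KO replicate 2 and -0.10 after scaling. The ratio of Cish to Socs2 was 3.89 to 4.78 in Control and 4.34, 2.79, 5.43 and 2.26 in Chd4KO, on both sides of the Control range.

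Socs3, the inhibitor of the interleukin-6 branch (ENSMUSG00000053113, chromosome 11, 117966079 to 117970047, minus strand), varied more than any other tested gene of the set. It had TPM of 22.8, 248, 243 and 144 in Control and of 102, 358, 65.4 and 43.2 in Chd4KO. The lowest and the second highest of the 8 values both came from Control, and the log2 difference of -0.24 ± 0.85 (SE, adjusted p = 0.888 from limma) was far inside that spread, turning to 0.16 without Chd4KO replicate 4 and to -1.02 without Control replicate 1. Immediate early genes, 15 genes such as Fos and Egr1 that cells switch on within minutes of a stimulus or of handling, summed to 2507, 9391, 9307 and 6808 TPM in Control and to 1580, 7954, 3319 and 3266 TPM in Chd4KO (exact permutation p = 0.229, two-sided). The 4 libraries with the highest sums, Control replicates 2, 3 and 4 and Chd4KO replicate 2, were the 4 with the highest Socs3. None of the 15 passed the limma test, and 3 had an unadjusted p under 0.05, against 2460 of all 15189 tested genes. The part of immediate early genes in the Socs3 values was not tested.

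Socs1, the inhibitor of interferon signalling (ENSMUSG00000038037, chromosome 16, 10782240 to 10785536, minus strand), was at 0.777, 0.984, 0.498 and 0.797 TPM in Control and at 6.93, 2.43, 0.619 and 0.697 TPM in Chd4KO. Chd4KO replicates 1 and 2 lay above every Control library, and replicates 3 and 4 lay inside the Control range. These levels rest on 16 to 53 recovered reads in Control and 13 to 146 in Chd4KO. A list of 12 interferon-induced genes, chosen after values had been seen, summed to 79.1 to 96.6 TPM in Control and to 918, 173, 93.4 and 89.9 TPM in Chd4KO (exact permutation p = 0.2, two-sided). Replicate 1 was the highest in the sum and in Socs1. The second place of replicate 2 in the sum rested on Usp18 alone, at 133 TPM there. Usp18 was at 72.0 to 137 TPM in Chd4KO and 43.4 to 56.2 TPM in Control, without overlap, as for 3.54% of all tested genes in that direction. Without Usp18 the other 11 genes summed to 35.8 to 46.3 TPM in Control. Chd4KO replicates 1 to 4 gave 780.4, 40.5, 19.4 and 17.9 TPM, with replicate 2 inside the Control range and replicates 3 and 4 below it. None of the 9 tested genes of the list passed the limma test, with 1 at an unadjusted p under 0.05, against 2460 of all 15189 tested genes. The part of interferon-induced genes in the Socs1 values was not tested.

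**Figure D3:**
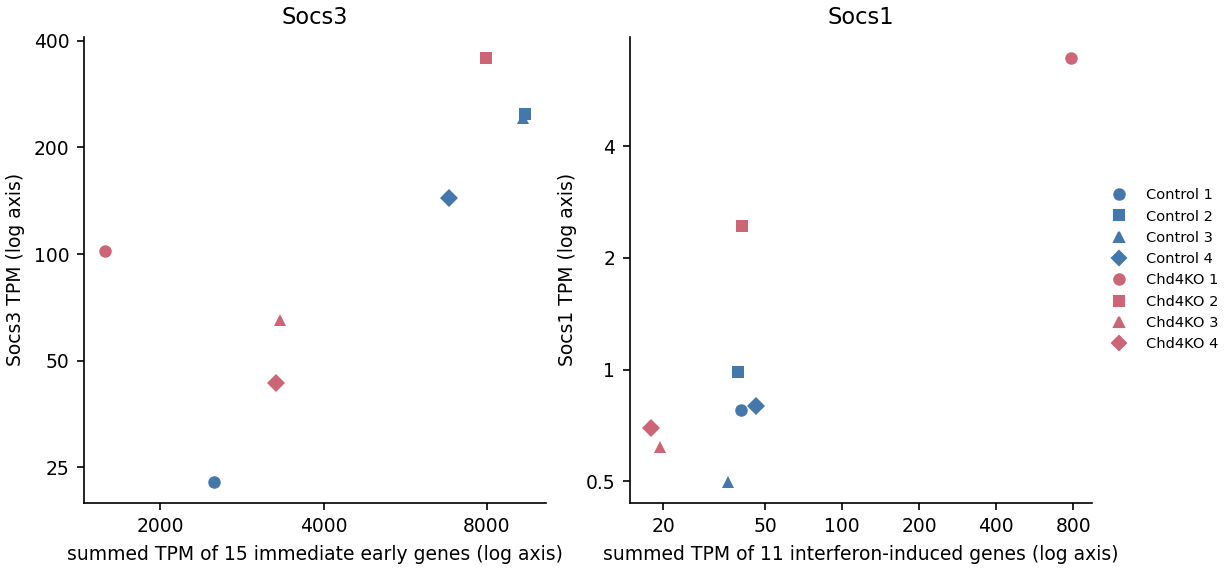
Left, Socs3 TPM against the summed TPM of 15 immediate early genes, and right, Socs1 TPM against the summed TPM of 11 interferon-induced genes (the list without Usp18), both axes log, with 1 point per library (blue Control, red Chd4KO). The 4 libraries highest in Socs3 are the 4 highest in immediate early genes, and on the right Chd4KO replicate 1 is the highest in both measures, while replicate 2, second in Socs1, lies among the Control libraries in the sum.

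Taken by library, the 10 genes did not move as a block. Against the Control range of each gene, Chd4KO replicate 1 had 2 genes below, 4 above and 4 inside, and replicate 2 had 2 below, 5 above and 3 inside. Replicate 3 had 7 below and 3 inside, and replicate 4 had 8 below and 2 inside. After scaling the counts were the same in replicates 1 and 2, with 6 below and 4 inside in replicate 3 and 6 below, 1 above and 3 inside in replicate 4. Stat5b was the only gene below the Control range in all 4 libraries, on either scale. The same counts per library were not made over all tested genes, so these cannot be read as particular to the pathway.

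The rest of the pathway gave no call. Of 70 other listed genes 69 were found and 50 tested. None of the 50 passed the limma test, against 2.97% of all tested genes, and voom called 1, Il10rb. In a list of this size a lack of calls lies near that share. An unadjusted p under 0.05 came for 7 of the 50, of which 4 were lower, against 2460 of all 15189 tested genes. The median change of the 50 was -0.30, with 35 negative, against -0.25 and 74.8% negative over all genes. The median was -0.053 after scaling and 0.066 without Chd4KO replicate 4. The groups did not overlap for 4 lower and 3 higher genes, against 11.3 and 3.54% of all genes.

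Among ligands, beta cells listed almost none. Gh, Prl3b1 and Prl8a2 were at 0 TPM in all 8 libraries, Prl did not pass 0.197 TPM, and only Igfals was tested, the circulating partner of the growth hormone-induced factor Igf1. Igfals had TPM of 199, 127, 119 and 117 in Control and of 124, 89.03, 96.2 and 53.7 in Chd4KO, with Chd4KO replicate 1 inside the Control range and the other 3 below it (log2 change -0.65 ± 0.29, SE, limma adjusted p = 0.311). After scaling, every Chd4KO library lay below every Control library, as for 7.35% of all tested genes. The scaled change was -0.35 (limma adjusted p = 0.341).

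Of 14 tested receptors of other cytokines, Il1r1 and Il13ra1 had the highest levels. Il1r1, the interleukin-1 receptor, stood at 88.5 ± 6.77 and 60.2 ± 32.7 TPM, and Il13ra1 at 43.5 ± 13.9 and 32.7 ± 24.1 TPM, in Control and Chd4KO (n = 4 each, SD). Neither passed the test. Cntfr and Il10rb came nearest to a call and are named after their values were seen. Cntfr, a receptor for ciliary neurotrophic factor, was at 3.60, 8.63, 4.32 and 4.77 TPM in Control and at 11.7, 11.2, 17.7 and 29.1 TPM in Chd4KO (log2 change 1.50 ± 0.34, SE, limma adjusted p = 0.0552). Il10rb, a chain shared by interleukin-10 family receptors, was at 4.71, 6.48, 5.19 and 4.90 TPM in Control and at 11.7, 11.2, 8.48 and 8.42 TPM in Chd4KO (0.79 ± 0.19, adjusted p = 0.0639). Both were higher in all 4 Chd4KO libraries than in any Control library, and Il10rb was called in 7 of 19 alternative fits and Cntfr in 1.

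Of the other JAKs and STATs, Jak1 had 78.4 ± 12.7 and 51.8 ± 25.3 TPM in Control and Chd4KO (n = 4 each, SD), a log2 difference of -0.75 (limma, adjusted p = 0.388). Stat2, which carries interferon signals, was at 11.5 to 16.3 TPM in Control and at 92.1, 24.2, 8.95 and 4.34 TPM in Chd4KO, high in the same 2 libraries as Socs1 (log2 change 0.40, adjusted p = 0.779, and -0.37 without replicate 1). Among 15 tested inhibitors outside the set, Ptpn6, the phosphatase SHP-1 that acts on cytokine receptors, had 59.6 ± 6.54 and 36.5 ± 6.73 TPM with no overlap between groups (log2 change -0.70, adjusted p = 0.101). Ptpn1, the phosphatase PTP1B that acts on Jak2, had 26.3 ± 0.755 and 57.1 ± 46.4 TPM (0.70, adjusted p = 0.502). Among 14 tested adaptors and parallel branches, Irs2, the insulin receptor substrate, had 126 ± 45.1 and 54.8 ± 43.7 TPM (-1.47, adjusted p = 0.269), and Shc1 had 90.01 ± 4.79 and 92.2 ± 44.6 TPM.

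Genes known to respond to prolactin or pregnancy in beta cells were where calls appeared. Of 36 listed 33 were tested, 4 fell and 1 rose, and 28 did not pass. That is against 1.44% of all genes called lower and 1.53% called higher, and the list was put together with earlier results of these data known, so its count is no independent evidence. An unadjusted p under 0.05 came for 13 of the 33, the 5 called genes among them, against 2460 of all 15189 tested genes, a count with the same limit. The median change of the list was -0.53 against -0.25 over all genes, and -0.23 against -0.01 after scaling. The groups did not overlap for 8 lower genes and 1 higher gene of the 33, against 11.3 and 3.54% of all tested genes.

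Tph1, which makes the serotonin precursor, had TPM of 335, 172, 112 and 164 in Control and of 35.1, 3.85, 10.9 and 6.11 in Chd4KO. Every Chd4KO library lay far below every Control library. It fell by 4.04 ± 0.60 on the log2 scale (SE, limma adjusted p = 0.00845) and passed in all 19 alternative fits, with the change between -4.61 and -3.13. Tph2, the neuronal form of the enzyme, was at 23.05 ± 3.37 and 10.4 ± 3.64 TPM (n = 4 each, SD), without overlap, but missed the threshold (adjusted p = 0.0765), which it passed in 7 of the 19 alternatives. Cldn8, a tight junction protein, named after its values were seen, was also called in 7, and had 347 ± 221 and 67.9 ± 50.6 TPM (limma adjusted p = 0.0527).

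Fmo1, a drug-oxidising enzyme, fell from 178 ± 45.8 to 41.03 ± 19.1 TPM (n = 4 each, SD), by -2.17 ± 0.35 in log2 (SE, limma adjusted p = 0.0125). Slc2a2, the glucose transporter, fell from 170.3 ± 26.9 to 67.8 ± 24.8 TPM (-1.37 ± 0.27 in log2, limma adjusted p = 0.0310). Wipi1, an autophagy protein whose promoter is printed above, fell from 52.9 ± 15.8 to 18.7 ± 7.75 TPM (-1.48 ± 0.30 in log2, limma adjusted p = 0.0347). Qpct, the enzyme that forms amino-terminal pyroglutamate, rose from 1.80 ± 0.407 to 7.25 ± 1.87 TPM (1.54 ± 0.22 in log2, limma adjusted p = 0.00651). In all 4 the groups did not overlap. Tph1 and Qpct kept their call whichever library was left out, but the count fell from 5 to 2 without Control replicate 1, 2 or 4 and to 3 without Control replicate 3 or Chd4KO replicate 2. Fmo1 had an adjusted p of 0.0501 to 0.0579 without Control replicate 1, 2 or 4, and Slc2a2 and Wipi1 each kept their call in 10 of 19 alternatives. Leaving out any Control library or Chd4KO replicate 1 or 2 put Slc2a2 at an adjusted p of 0.0536 to 0.125, and leaving out any Control library or Chd4KO replicate 2 or 3 put Wipi1 at 0.0688 to 0.134. Control replicate 1 held the highest Control value for 20 of the 33 genes (60.6%), as it did for 53.0% of all tested genes.

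**Figure D4:**
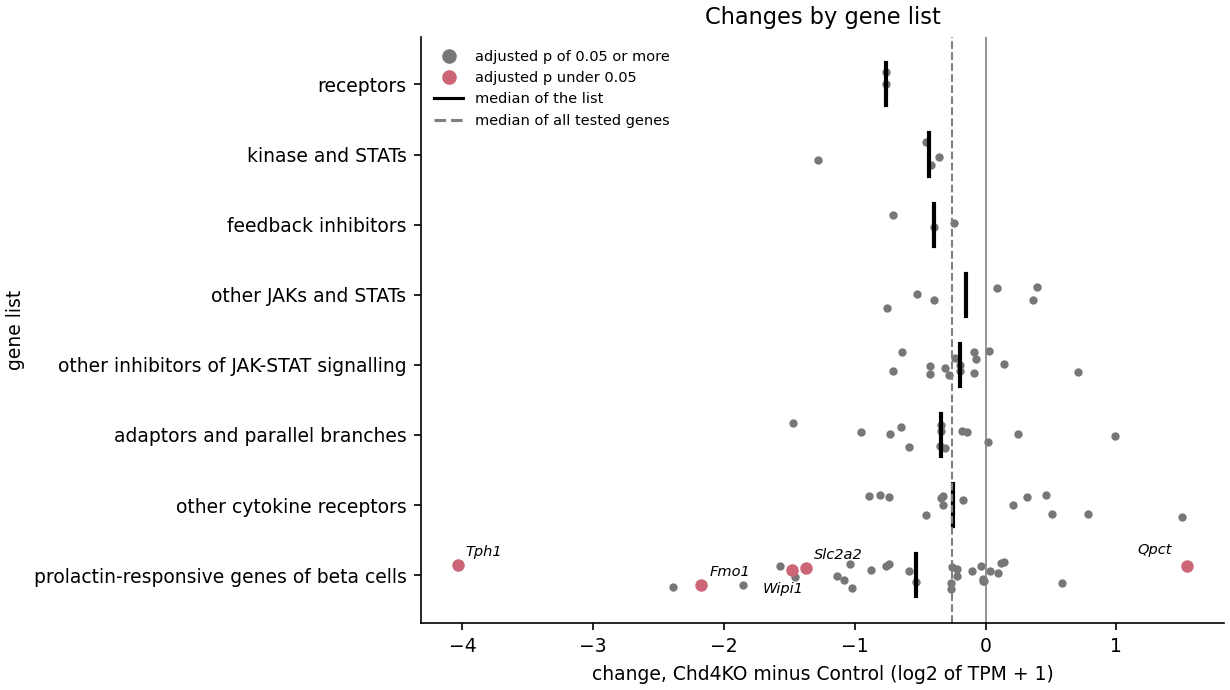
Change of each tested gene in Chd4KO against Control (log2 of TPM + 1) by gene list, with grey points for an adjusted p of 0.05 or more, red points for one under 0.05, a black bar at the list's median and a dashed line at the median of all tested genes (-0.25). Called genes, Tph1, Fmo1, Wipi1, Slc2a2 and Qpct, appear in the prolactin-responsive list alone among the 8 lists drawn.

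Tph1 stood apart from the signalling genes within each library. The ratio of Tph1 to Prlr was 1.76, 1.15, 0.642 and 0.972 in Control and 0.183, 0.0721, 0.0844 and 0.0823 in Chd4KO. The ratio of Tph1 to Cish was 1.18, 0.897, 0.936 and 1.22 in Control and 0.206, 0.0281, 0.0869 and 0.1499 in Chd4KO, means of 1.06 ± 0.166 and 0.118 ± 0.0771 (n = 4 each, SD). Neither ratio overlapped between the groups. The ratio of Cish to Prlr did overlap, at 1.50, 1.28, 0.686 and 0.794 in Control and 0.889, 2.56, 0.971 and 0.549 in Chd4KO. Since the fall of Tph1 was known when these ratios were chosen, they describe the libraries and carry no test.

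**Figure D5:**
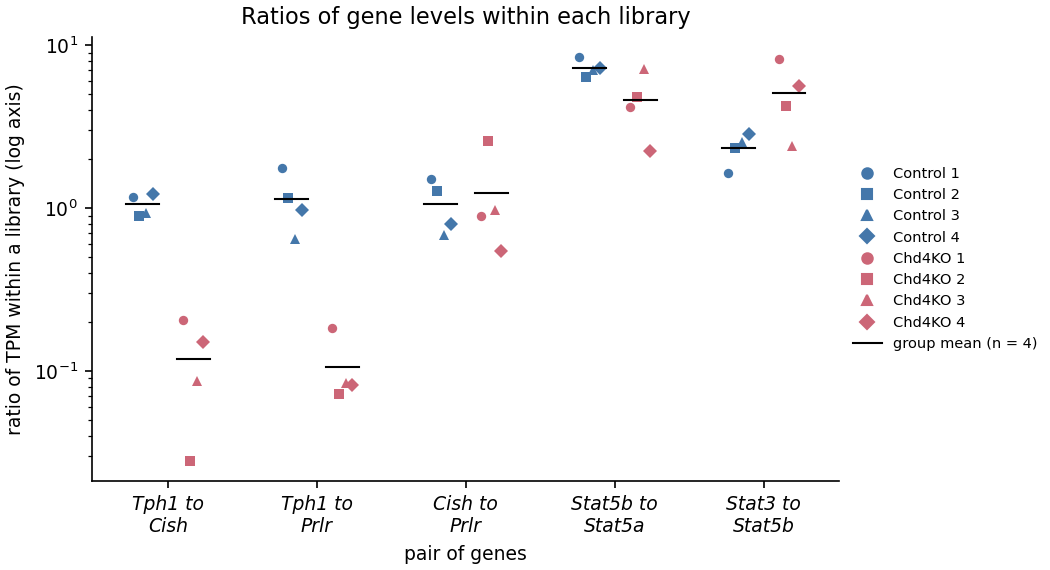
Ratios of TPM between pairs of genes within each library on a log axis, with 1 point per library (blue Control, red Chd4KO) and a bar at the group mean (n = 4). Tph1 relative to Cish lies between 0.897 and 1.22 in Control and between 0.0281 and 0.206 in Chd4KO, while Cish relative to Prlr overlaps between the groups.

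The genes most like the receptors and the Stat5 targets across the 8 libraries were found by the mean absolute difference of centred log2(TPM + 1) values. For Prlr they were Cks2 at 0.14, the division marker Mki67 at 0.158 and Shc4 at 0.182, against a median of 0.453 over all tested genes. Mki67 was low, at 2.03 ± 0.423 and 1.32 ± 1.02 TPM in Control and Chd4KO (n = 4 each, SD), and at such levels the added 1 flattens a profile. For Ghr they were Galnt4 at 0.0777, Rtn4 at 0.0938 and Plcxd3 at 0.0938 (median 0.410). Plcxd3 had 13.3 to 13.9 TPM in Control and 8.18, 16.6, 8.33 and 4.27 TPM in Chd4KO, which repeats the high replicate 2 of Ghr. For Cish they were Zfp551 at 0.0989, Pkd2 at 0.12 and Ccng1 at 0.128 (median 0.429), and for Socs2 Mef2a at 0.118, Brpf3 at 0.12 and Elmo1 at 0.12 (median 0.365). None of these 12 genes changed in the comparison (limma adjusted p from 0.299 to 0.715). They were chosen for closeness to genes that were not called, so this is no separate result.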

How the data were processed

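RNA of flow-sorted beta cells was sequenced in 8 libraries, 4 per group. Per the labels' protocols, SMART-Seq cDNA of low-input RNA was made into Nextera XT libraries, which do not mark strand. The authors deposited TPM for each gene and library. The tools named, per the submitters' processing notes, are HISAT2, HTSeq, DESeq2, Trimmomatic and FastQC, with mm10 and no versions. Their gene annotation is not stated there. Names and positions of genes came from GENCODE M21, which held 99.5% of the identifiers.

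Tested genes had at least 1 TPM in 4 or more libraries. The test was limma (3.58.1, R 4.3.3) on log2(TPM + 1), two-sided, with genotype as the only term. Fold changes on that scale understate low genes. Whole reads were recovered as TPM times merged exon length, which gave whole multiples for 98.5 to 98.6% of values within 0.05 of a read, and served for depth and for an alternative fit with voom. Single values per library were compared by exact permutation, which cannot give p below 0.0286. The fit was first tested on simulated data whose spread was taken from the Control libraries alone. That test does not cover the larger spread among Chd4KO libraries. Replicate numbers were not treated as pairs, since each library has its own animal number and the labels name no pairing. Deviations of same-numbered libraries correlated at -0.02, 0.43, 0.08 and 0.04. The 0.43, of the libraries numbered 2, was the highest among all pairs of a Control and a Chd4KO library. A shared litter or processing day is not named and was not tested.

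Named genes are the 10 members, Chd4, Tph1, up to 6 called genes of each other list, the 2 with the highest TPM where at most 1 was called, and the 3 with the profile nearest to Prlr, Ghr, Cish and Socs2. Members and lists were chosen with earlier results of these data known. The 19 alternatives cover the pseudocount, filter, scaling, variance model, array weights, replicate block, recovered reads and left-out libraries. Tables and figures used Python 3.11.15 with scipy 1.17.1, pandas 2.3.3, matplotlib 3.10.9 and numpy 2.4.6.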

Additional observations from a re-analysis of the deposited data

Results flagged for a closer look

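Of 78 groups of 4 values checked, 6 held a library whose gap to its nearest neighbour passed Dixon's 95% critical value for 4 samples, and chance flags about 1 in 20. Igfals stood at 198.8 TPM in Control replicate 1, against 117 to 127 TPM in the other Control libraries. Acinar markers summed to 1740 TPM in Control replicate 2 and to 43645 TPM in Chd4KO replicate 2, which is the library lowest in Prlr and highest in Ghr and Socs3. Interferon-induced genes summed to 917.6 TPM, or 780.4 TPM without Usp18, in Chd4KO replicate 1, the library highest in Socs1, Stat2 and Jak2. The ratio of Tph1 to Prlr was 0.1832 in Chd4KO replicate 1, against 0.0721 to 0.0844 in the other Chd4KO libraries and at least 0.642 in Control.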

How the results depend on the processing

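Of 170 alternative values for the 9 tested members, 159 kept their direction and their side of the threshold, 3 became calls and 8 changed sign, in Jak2, Stat3 and Socs3. The calls were Stat5b with array weights (1 member called) and Ghr and Stat5b without Chd4KO replicates 2 and 4 (2 members called). Over single left-out libraries Jak2 ran from -0.84 to 0.26, Stat3 from -0.82 to 0.20, Socs3 from -1.02 to 0.16, Stat2 down to -0.37 and Shc1 from -0.39 to 0.34. The turns came without Chd4KO replicate 4 for Jak2, Stat3, Socs3 and Shc1, without Control replicate 2 (0.11) or 3 (0.10) for Socs3, and without Chd4KO replicate 1 for Stat2. Without Chd4KO replicates 2 and 4 Jak2 was 0.22, Stat3 0.079 and Shc1 0.32. With median-of-ratios scaling Socs3 was 0.058 and Shc1 0.11, and with array weights Shc1 was 0.25. The cause was not tested.

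Other pathway genes went from 0 calls to 2 without a filter, 1 with median-of-ratios scaling, 1 with scaling without hormones and mitochondrial genes, 2 with quantile normalisation, 6 with array weights, 1 with voom, 2 without Chd4KO replicates 2 and 4, and 0 to 2 over single left-out libraries. By gene, Il10rb was called in 7 alternatives, Lyn in 4, Nek3 in 2, and Cntfr, Igf2, Il11ra1 and Irs2 in 1 each. Prolactin-responsive genes went from 5 calls to 3 without a filter, to 2 to 6 over single left-out libraries, to 6 with median-of-ratios scaling, and to 7 with quantile normalisation, array weights, voom and scaling without hormones and mitochondrial genes. Over all genes the 451 calls (233 higher, 218 lower) became 220 with a minimum TPM of 5, 705 with median-of-ratios scaling (443 higher), 755 with quantile normalisation (466 higher), 1364 with array weights (786 lower), 589 without Chd4KO replicates 2 and 4 (351 lower), and 135 to 630 over single left-out libraries.

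With the replicate block 274 genes were called, none of the members or other pathway genes among them, and 5 prolactin-responsive genes, where Slc2a2 had an adjusted p of 0.0734. Of the 4 Chd4KO libraries, replicate 2 alone correlated best with its own number. TPM holds no read numbers, so depth enters through the recovered reads, which are few for Socs1.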
